A study of Mus musculus with 27 samples.

Results

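The genes examined were 10 genes known for patterning the boundary of the midbrain and hindbrain, which were En1, En2, Wnt1, Fgf8, Pax2, Pax5, Pax8, Otx2, Gbx2 and Lmx1b. They were taken by gene symbol from the table of read counts, which lists 55416 genes, and all 10 were found. RNA of the whole brain of female mouse fetuses was sequenced in 27 libraries, with 3 libraries for each of 3 strains on gestational days 12, 15 and 17 (d12, d15 and d17), where the day of the vaginal plug was day 1. The strains were C57BL/6J, an inbred strain with a long life, AKR/J, an inbred strain with a short life, and B6.Cg-Cav1tm1Mls/J, a congenic strain on the C57BL/6J background that lacks caveolin 1 in all cells, has a short life and is called Cav1-null here. No agent was given to any group, and the labels do not say which fetuses shared a litter, so that p-values measure only the spread between these samples.

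The boundary between the midbrain and hindbrain is a signaling center of the neural tube, the isthmic organizer. Otx2 marks the forebrain and midbrain in front of it, Gbx2 marks the anterior hindbrain behind it, and the mutual repression of these homeobox factors sets its position. At the boundary, Wnt1 is secreted on the midbrain side and Fgf8 on the hindbrain side. The paired box factors Pax2, Pax5 and Pax8, the engrailed factors En1 and En2 and the LIM homeobox factor Lmx1b maintain these signals, and the region gives rise to the tectum, the cerebellum, and the dopamine and serotonin neurons. Several of these genes also work elsewhere, Otx2 in the choroid plexus and the eye, Pax2 and Pax8 in interneurons of the hindbrain and spinal cord, the inner ear and the kidney, and Pax5 in B cells. In RNA of a whole brain, fewer cells of a type and less RNA in each of these cells cannot be told apart.

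Some libraries stood apart from their group in markers of tissue. The unit of level is CPM, in which reads are scaled to library size, here after normalization by the trimmed mean of M values (TMM). Cav1 was at 0 to 0.509 CPM in the 9 Cav1-null libraries, whereas its lowest library was at 9.25 CPM in AKR/J and at 10.3 CPM in C57BL/6J. Summed over 9 forebrain genes, the level was 180.2 CPM in replicate 3 of AKR/J d12, against 539.6 and 522 CPM in the other libraries of that group. It was also low in replicate 3 of C57BL/6J d12, with 511 CPM against 1336 and 1283 CPM, in replicate 3 of Cav1-null d12, with 271 CPM against 995 and 876 CPM, and in replicate 2 of C57BL/6J d17, with 293 CPM against 882 and 479 CPM. Summed over 10 Hox genes of the hindbrain and spinal cord, the level was 145 CPM in replicate 3 of AKR/J d15 and 160.0 CPM in replicate 3 of C57BL/6J d15, against 0.206 to 28.4 CPM in the other libraries of these groups. In replicate 3 of Cav1-null d12, this sum was 57.3 CPM against 0.184 and 0.758 CPM, and in replicate 3 of AKR/J d17, which enters the late interval of AKR/J, it was 71.1 CPM against 16.9 and 32.4 CPM. Summed over 6 erythroid genes, the AKR/J d12 libraries had 32076 to 191861 CPM and the other 24 libraries had 129 to 4282 CPM. Summed over 6 genes of trophoblast and yolk sac, these 3 libraries had 1962, 238 and 54.4 CPM and replicate 3 of C57BL/6J d12 had 64.3 CPM, against 0.199 to 12.4 CPM in the other 23. The AKR/J d12 libraries with these high sums enter the early interval of AKR/J and its comparison with C57BL/6J on d12, and with them the calls of Otx2, Gbx2, Fgf8 and Pax2 there. Their levels are therefore given by library, and the calls lost or gained without the 6 libraries of low forebrain sum or high Hoxb8 are given with the results. The part of these tissues in the results was not tested.

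Per kilobase of exon, Otx2 had the highest median level of the 10 genes on d12, with 20.7 CPM per kb over 9 libraries. It was followed on that day by Gbx2 with 5.35, En2 with 4.41 and Lmx1b with 2.47 CPM per kb, whereas Pax8 with 0.171 and Pax2 with 0.0952 CPM per kb were lowest. On d17, Otx2 was again highest with 6.68 CPM per kb, En2 was next with 3.76, and Wnt1 was lowest with 0.0456 CPM per kb. Pax2 had moved from the last to the sixth place, with 1.08 CPM per kb. For Pax2, Pax5, En2, En1, Gbx2 and Otx2 the spread between libraries was widest on d12. The highest of the 9 d12 libraries was 256 times the lowest for Pax2, 148 times for Pax5, 135 times for En2 and 37.4 times for En1, against 2.83 times for Otx2. On d17, the same ratio was 1.53 for Otx2, 2.16 for Lmx1b and 2.90 to 3.47 for En2, En1, Gbx2, Pax2, Pax8 and Pax5. It was wider later for 3 genes, with 11.0 on d12, 19.8 on d15 and 23.0 on d17 for Fgf8, 9.83, 8.59 and 9.88 for Wnt1, and 5.42 on d12 and 8.90 on d15 for Lmx1b, and it could not be given on d12 for Pax8, whose lowest library had 0 reads. Neighbours in the order on d12 other than Otx2 and Gbx2 had overlapping ranges.

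**Figure D1:**
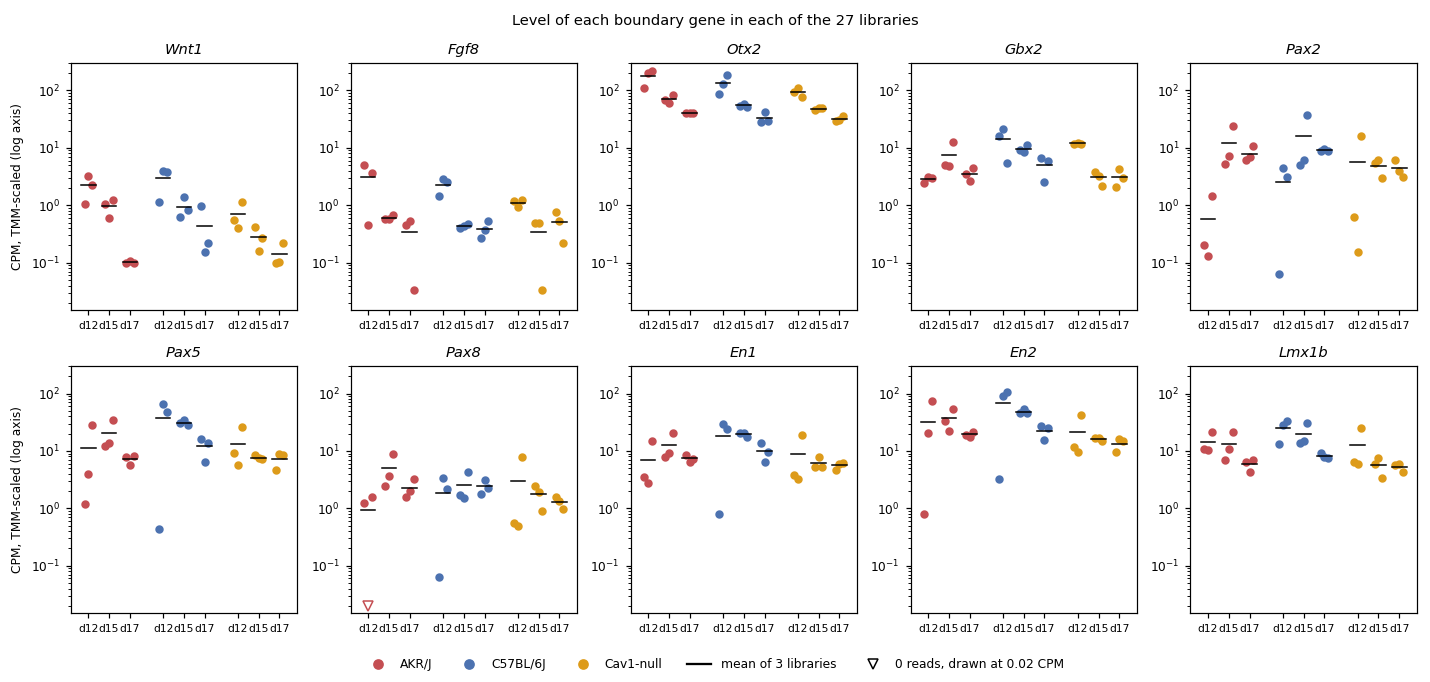
Level of the 10 genes in each library (vertical axis, CPM after TMM scaling, log scale) by strain and gestational day (horizontal axis). Points are single libraries, lines are means of 3 libraries, and an open triangle at 0.02 CPM is a library with 0 reads. Otx2 steps down from d12 to d17 in every strain, and Pax2, Pax5, En1 and En2 spread over more than a factor of 30 among the d12 libraries.

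Otx2 fell in all strains and in both intervals. Otx2 (chromosome 14, 48894099 to 48911276, minus strand, GRCm39) was at 112, 203 and 222 CPM on d12 in AKR/J, at 67.3, 59.6 and 84.1 CPM on d15 and at 40.3, 40.2 and 40.1 CPM on d17. In C57BL/6J it was at 85.8, 131 and 189.6 CPM on d12, at 53.9, 59.1 and 52.4 CPM on d15 and at 28.2, 43.0 and 29.3 CPM on d17. In Cav1-null mice it was at 95.1, 109 and 78.3 CPM, then at 46.1, 49.7 and 48.8 CPM, and then at 29.6, 30 and 36.1 CPM. The libraries of consecutive days did not overlap in any strain. In these comparisons, the same held for 8149 of 19934 genes tested (Cav1-null mice, d12 to d15) up to 9459 of 19935 (AKR/J, d12 to d15). The whole table was tested by the quasi-likelihood method of edgeR, a call needed an adjusted p (Benjamini-Hochberg) under 0.05, and log2 fold changes are given with their SE. Between d12 and d15, Otx2 fell by 1.39 ± 0.28 in AKR/J (adjusted p = 0.00834), by 1.35 ± 0.27 in C57BL/6J (adjusted p = 0.0268) and by 0.96 ± 0.11 in Cav1-null mice (adjusted p = 9.19e-04) on the log2 scale. Between d15 and d17, it fell by 0.79 ± 0.12 (adjusted p = 0.00314), 0.66 ± 0.17 (adjusted p = 0.0420) and 0.59 ± 0.09 (adjusted p = 4.18e-04), respectively. In AKR/J and Cav1-null mice all 4 calls were made without each single library. In C57BL/6J they were lost without replicate 1, 2 or 3 of d15 (adjusted p of 0.0956 to 0.132 for the early and 0.109 to 0.158 for the late interval), and the late one also without replicate 3 of d17. Without the libraries of low forebrain sum or high Hoxb8, the early calls were lost in AKR/J (adjusted p = 0.0855) and C57BL/6J (adjusted p = 0.0501), and the other 4 calls stood, that of the late interval in Cav1-null mice holding none of these libraries. With library sizes alone in place of TMM, the median of all genes in AKR/J moved from 0.02 to 0.46 between d12 and d15, and Otx2, at a log2 fold change of -0.98, had an adjusted p of 0.0833. This scaling also ended the late call in C57BL/6J, where Otx2 had -0.51 (adjusted p = 0.110) and the median of all genes moved from 0.03 to 0.17. The early call in C57BL/6J was lost with a replicate block (adjusted p = 0.0677), and the late one in Cav1-null mice in 1 model of all 27 libraries (adjusted p = 0.18). Summed over 6 choroid plexus genes, the level was 23.1 to 192 CPM on d12 and 482 to 522 CPM on d17 in AKR/J, 96.3 to 296 and 504 to 621 CPM in C57BL/6J, and 185 to 656 and 299.8 to 355 CPM in Cav1-null mice. Summed over 8 eye genes, it was 210.7 CPM in replicate 2 of AKR/J d15, whose Otx2 was the lowest of that group, and 2.18 to 8.54 CPM in the other 26 libraries.

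The reads over splice junctions gave a second readout of Otx2 beside its level, although which junctions are listed depends on their number of reads. Both annotated introns at chr14:48898908-48899900 share a donor site and differ by 24 bases at their acceptor, which adds 8 codons to the coding exon when the shorter intron is removed. The sequence around these acceptors (GRCm39, chr14:48898878-48898961, minus strand) is shown because the reads divide there, with the bases that are exon only after removal of the shorter intron in capitals:
Otx2 acceptors: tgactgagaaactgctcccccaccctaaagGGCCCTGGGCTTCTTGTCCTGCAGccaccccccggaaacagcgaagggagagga
Both introns end in AG. Over the 27 libraries, 3150 reads spanned the longer intron, which starts at 48898908 in the genome, and 743 spanned the shorter, which starts at 48898932. The shorter intron took 29.2% ± 27.0 (SD, n = 9) of these reads on d12 and 16.8% ± 7.12 (SD, n = 9) on d17, a difference of -12.4 percentage points (exact permutation test, two-sided, p = 0.134, the same after adjustment over the 1 pair tested). The longer intron was listed at 0 in 2 libraries, replicate 1 of AKR/J d12 with 29 reads of the shorter (100%, 95% Clopper-Pearson interval 88.1 to 100) and replicate 3 of C57BL/6J d15 with 20 reads (100%, interval 83.2 to 100). The other 25 libraries had 41 to 324 reads of the longer intron and shares of 6.12% to 29.3%. Since the deposited table leaves out junctions with few reads or short overhangs, a 0 in it can stand for removed reads, and the intervals cover counting error only. Without these libraries the shares were 20.4% ± 5.49 (SD, n = 8) on d12 and 16.8% ± 7.12 (SD, n = 9) on d17 (exact permutation test, two-sided, p = 0.268). Within strains, the mean share on d12 and d17 was 22.7% and 21.0% in AKR/J, 19.8% and 20.2% in C57BL/6J, and 19.4% and 9.22% in Cav1-null mice. In Cav1-null mice the libraries did not overlap, at 19.1%, 19.4% and 19.6% on d12 against 6.12%, 8.89% and 12.7% on d17, but 3 libraries against 3 were not tested alone. No junction was listed for Wnt1, Fgf8, En1 or En2, and the other pair of alternative introns, in Pax2, had 88 reads in all and was not tested.

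**Figure D2:**
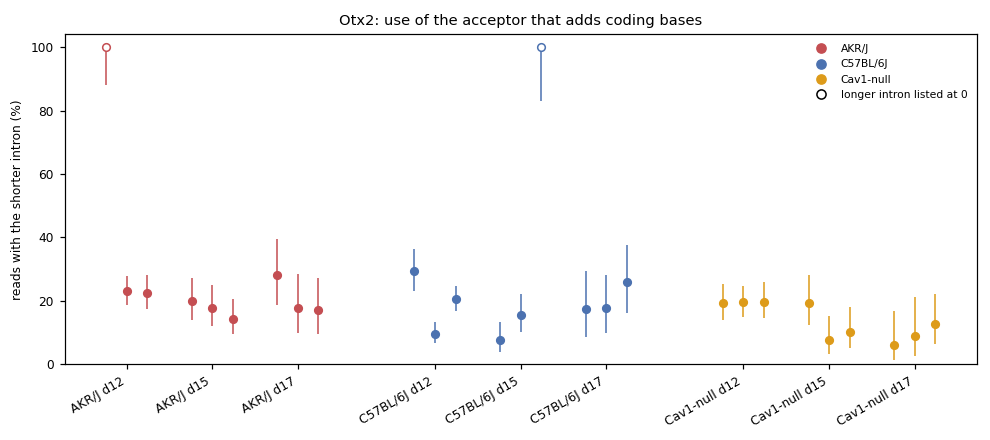
Share of Otx2 junction reads that span the shorter intron (vertical axis, percent) in each library by strain and gestational day (horizontal axis), with 95% Clopper-Pearson intervals. The libraries at 100% are those whose longer intron was listed at 0, and the other 25 lie between 6.12% and 29.3%.

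Gbx2, the factor on the hindbrain side, rose in AKR/J and fell in Cav1-null mice between d12 and d15, and the difference between these changes was not tested directly. Gbx2 (chromosome 1, 89855678 to 89858920, minus strand) was at 2.43, 3.06 and 2.95 CPM in AKR/J on d12, at 5.09, 4.77 and 12.9 CPM on d15 and at 3.47, 2.64 and 4.47 CPM on d17. In C57BL/6J it was at 15.8, 20.9 and 5.40 CPM, at 9.24, 8.35 and 11.0 CPM, and at 6.72, 2.53 and 5.80 CPM. In Cav1-null mice it was at 11.8, 12.2 and 11.7 CPM, at 3.80, 3.19 and 2.20 CPM, and at 2.07, 4.30 and 2.93 CPM. Every AKR/J library of d12 was lower than every other d12 library. Between d12 and d15, Gbx2 rose in AKR/J with a log2 fold change of 1.38 ± 0.43 (adjusted p = 0.0446) and fell in Cav1-null mice by 1.96 ± 0.22 (adjusted p = 7.55e-04). In C57BL/6J its log2 fold change was -0.59 ± 0.42 (adjusted p = 0.347). The rise in AKR/J was called only without replicate 2 of d15 among the 6 ways of leaving out a library (adjusted p of 0.0601 to 0.188 in the others), and was lost with RLE size factors (adjusted p = 0.0502) and with a replicate block (adjusted p = 0.0786). The fall in Cav1-null mice was called without each single library. Without the libraries of low forebrain sum or high Hoxb8, the adjusted p in AKR/J was 0.308, and Gbx2 was called lower in C57BL/6J with a log2 fold change of -1.07 (adjusted p = 0.0419). The difference between AKR/J and C57BL/6J in this interval, tested by an interaction term, was 1.92 ± 0.65 (unadjusted p = 0.0118, adjusted p = 0.183), and that between Cav1-null mice and C57BL/6J was -1.39 ± 0.51 (unadjusted p = 0.0182, adjusted p = 0.257). In 1 model of all 27 libraries the adjusted p of the AKR/J term was 0.0446, and it was 0.0496 without replicate 3 of C57BL/6J d12. The summed level of 6 cerebellum genes was highest in the same library as Gbx2 in 7 of the 9 groups. This sum rests mostly on Zic1, at 163 to 414 CPM over all libraries, whereas Atoh1 was at 0 to 3.75 CPM and Ptf1a at 0 to 0.444 CPM.

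The secreted signals were at low levels, and each fell in some of the intervals. Wnt1 (chromosome 15, 98687738 to 98691718, plus strand) was at 1.07, 3.29 and 2.29 CPM in AKR/J on d12, at 1.07, 0.611 and 1.25 CPM on d15, and had 3 reads in each library of d17, about 0.1 CPM. In C57BL/6J it was at 1.14, 3.91 and 3.84 CPM, at 0.621, 1.39 and 0.825 CPM, and at 0.960, 0.154 and 0.217 CPM. In Cav1-null mice it was at 0.551, 0.398 and 1.14 CPM, at 0.418, 0.161 and 0.271 CPM, and at 0.10, 0.102 and 0.223 CPM. With the quasi-likelihood test the change of Wnt1 was called in AKR/J between d15 and d17, a fall by 3.19 ± 0.48 on the log2 scale (adjusted p = 0.00330), which was called without each single library. In the other intervals its log2 fold change lay between -1.70 and -1.02, with adjusted p from 0.0649 to 0.334. Between d15 and d17 in C57BL/6J, Wnt1 was called lower without replicate 1 of d17, the library at 0.960 CPM. In C57BL/6J between d12 and d15 it was called lower by DESeq2 (adjusted p = 0.0120) and by edgeR's likelihood ratio test (adjusted p = 0.0164), and between d15 and d17 in Cav1-null mice it had too few reads to be tested. Fgf8 (chromosome 19, 45725237 to 45731354, minus strand) was at 5.07, 0.461 and 3.71 CPM in AKR/J on d12, at 0.565, 0.581 and 0.671 CPM on d15 and at 0.454, 0.542 and 0.0334 CPM on d17. In C57BL/6J it was at 1.45, 2.90 and 2.51 CPM on d12 and at 0.265 to 0.527 CPM on d15 and d17. In Cav1-null mice it was at 1.17, 0.948 and 1.22 CPM on d12 and at 0.0339 to 0.769 CPM on the later days. The low replicate 2 of AKR/J d12 overlapped the later days. Between d12 and d15, Fgf8 fell by 2.38 ± 0.76 in AKR/J (adjusted p = 0.0479) and by 2.41 ± 0.34 in C57BL/6J (adjusted p = 0.0176) on the log2 scale, and its log2 fold change was -1.72 ± 0.64 in Cav1-null mice (adjusted p = 0.0856). The AKR/J call was made only without replicate 2 of d12 when single libraries were left out (adjusted p of 0.113 to 0.156 in the others), and the C57BL/6J call was lost without replicate 1, 2 or 3 of d15 (adjusted p of 0.0753 to 0.107). Both were lost without the libraries of low forebrain sum or high Hoxb8, with adjusted p of 0.244 and 0.0533, and both with a replicate block (0.130 and 0.0672). That in AKR/J was also lost with library sizes alone (0.0973).

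Pax5 varied with En1 and En2 from library to library, and all 3 genes spread more on d12 than later. Pax5 (chromosome 4, 44524757 to 44710487, minus strand) was at 1.20, 3.95 and 28.8 CPM in AKR/J on d12, at 0.442, 65.2 and 47.1 CPM in C57BL/6J and at 9.06, 5.66 and 25.6 CPM in Cav1-null mice. En1 (chromosome 1, 120530108 to 120535721, plus strand) was at 3.50, 2.76 and 14.9 CPM, at 0.789, 29.5 and 24.0 CPM, and at 3.82, 3.27 and 19.3 CPM in the same libraries. En2 (chromosome 5, 28370689 to 28377195, plus strand) was at 0.783, 20.7 and 74.8 CPM, at 3.25, 92.1 and 106 CPM, and at 11.6, 9.76 and 42.2 CPM. Replicate 1 of C57BL/6J was thus the lowest d12 library for Pax5 and En1, although its Otx2, at 85.8 CPM, and its Gbx2, at 15.8 CPM, lay within the range of the day. Replicate 3 of AKR/J and of Cav1-null mice, where the forebrain sum was low, was the highest of its group for all 3 genes. The other libraries of low forebrain sum differed from these, since replicate 3 of C57BL/6J d12 was highest for En2 but below replicate 2 for Pax5 and En1, and replicate 2 of C57BL/6J d17 was the lowest of its group for all 3 genes. The ratio of En2 to En1 ran from 0.224 to 7.48 on d12 and from 2.0 to 2.96 on d17, and that of Pax5 to En1 from 0.341 to 2.37 on d12 and from 0.909 to 1.47 on d17. Of all 16446 genes with a mean of at least 1 CPM, En1 (Pearson's r = 0.95) and En2 (r = 0.94) had the log2 levels most like those of Pax5 over the 27 libraries, which share strain, day and the part of the brain sampled. Pax5 and En2 had the same highest library in 8 of the 9 groups, Pax5 and En1 in 5, and En1 and En2 in 4. All 3 libraries of a group stood in the same order in 6, 4 and 2 groups, respectively. Genes of B cells, where Pax5 also works, summed to 0.284 to 1.68 CPM over Cd79a, Cd79b and Ms4a1, with Ms4a1 at 0 in 22 of the 27 libraries.

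**Figure D3:**
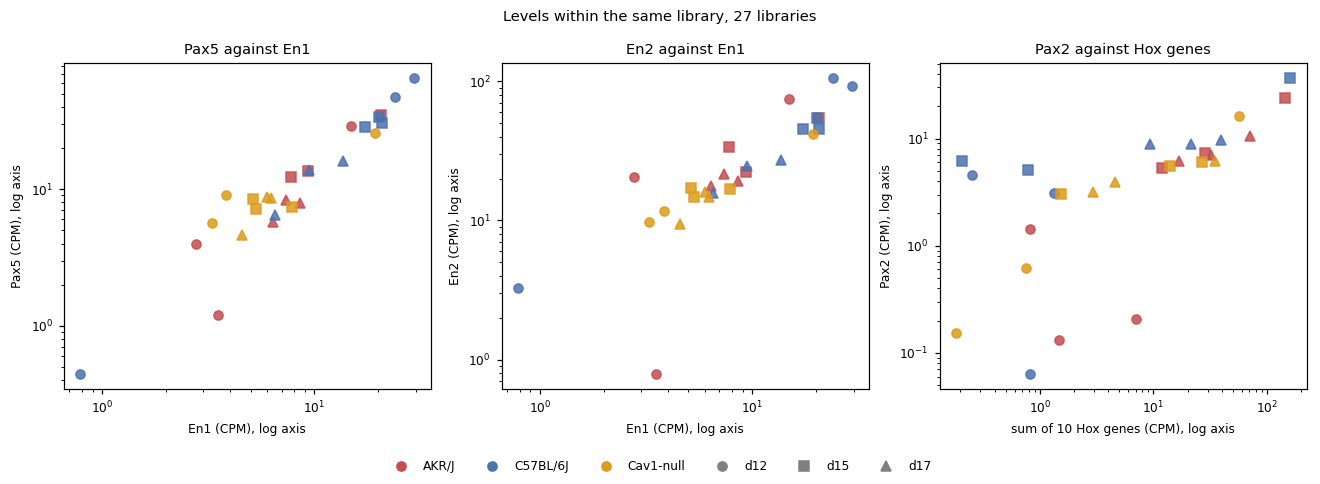
Level of Pax5 against En1, of En2 against En1 and of Pax2 against the sum of 10 Hox genes (both axes CPM after TMM scaling, log scales), with 1 point for each of the 27 libraries, colored by strain and shaped by day. Pax5 rises with En1, with C57BL/6J libraries of d12 at both ends (0.442 and 65.2 CPM of Pax5), and the 4 libraries with the highest Hox sums have the 4 highest levels of Pax2.

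The promoters of En1 and Pax5 (RefSeq, GRCm38.p6, 250 bases before to 50 bases after the start of transcription) are shown because these genes had the most similar levels. The core motif of Pax2, Pax5 and Pax8, GCGTGAC on either strand, is in capitals:
En1 promoter: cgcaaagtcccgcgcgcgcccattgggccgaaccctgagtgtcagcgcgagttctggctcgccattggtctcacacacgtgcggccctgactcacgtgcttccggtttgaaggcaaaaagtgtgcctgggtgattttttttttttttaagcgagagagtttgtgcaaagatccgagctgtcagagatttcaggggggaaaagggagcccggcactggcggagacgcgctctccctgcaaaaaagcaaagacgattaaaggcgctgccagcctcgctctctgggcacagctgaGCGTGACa
Pax5 promoter: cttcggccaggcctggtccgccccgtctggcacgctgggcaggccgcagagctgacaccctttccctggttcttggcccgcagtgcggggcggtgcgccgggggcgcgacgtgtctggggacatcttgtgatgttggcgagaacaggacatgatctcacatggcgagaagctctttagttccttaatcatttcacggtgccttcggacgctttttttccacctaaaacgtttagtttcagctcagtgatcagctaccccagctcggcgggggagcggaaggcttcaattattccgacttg
They lie at chr1:120602237-120602536 on the plus strand and at chr4:44710645-44710944 on the minus strand of that build. The motif began 42 bases past the start of En1 and was not found in the Pax5 window. Of all 32851 promoters of this length, 687 (2.09%) held it, and of the 13 promoters of 8 of the genes this 1 did. The Otx core TAATCC was in 7.06% of all promoters and in 1 of the 13, that of Otx2 itself, and the homeodomain core TAATTA was in 5.29% of all and in 2 of the 13, both of Otx2. En2 and Fgf8 were not matched.

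On d15, the ratio of the highest to the lowest library within each strain was smaller than on d12 for Pax5, En1 and En2. By SD this did not hold for En1 in AKR/J, with 6.99 CPM on d15 and 6.82 CPM on d12. Pax5 and En2 fell from d15 to d17 in AKR/J and C57BL/6J. Pax5 was at 12.3, 13.6 and 34.7 CPM in AKR/J on d15 and at 7.88, 5.79 and 8.28 CPM on d17, at 30.4, 33.9 and 28.5 CPM and then 16.1, 6.51 and 13.7 CPM in C57BL/6J, and at 8.44, 7.42 and 7.12 CPM and then 4.65, 8.74 and 8.59 CPM in Cav1-null mice. En2 was at 33.8, 22.4 and 54.2 CPM and then 19.2, 17.6 and 21.6 CPM in AKR/J, at 45.4, 54.2 and 45.8 CPM and then 27.2, 15.7 and 24.7 CPM in C57BL/6J, and at 17.1, 16.7 and 14.7 CPM and then 9.39, 15.9 and 14.8 CPM in Cav1-null mice. En1 was at 7.76, 9.35 and 20.6 CPM and then 8.56, 6.36 and 7.31 CPM in AKR/J, at 20.7, 20.2 and 17.3 CPM and then 13.6, 6.51 and 9.45 CPM in C57BL/6J, and at 5.16, 7.81 and 5.32 CPM and then 4.58, 5.96 and 6.23 CPM in Cav1-null mice. The C57BL/6J libraries of the 2 days did not overlap for any of the 3 genes, beside 42.3% of all genes tested, and the Cav1-null libraries did for each. Between d15 and d17, Pax5 fell by 1.44 ± 0.38 in AKR/J (adjusted p = 0.0285) and by 1.28 ± 0.32 in C57BL/6J (adjusted p = 0.0391) on the log2 scale. En2 fell by 0.89 ± 0.27 (adjusted p = 0.0455) and 1.04 ± 0.22 (adjusted p = 0.0257), and En1 had log2 fold changes of -0.74 ± 0.34 (adjusted p = 0.155) and -0.91 ± 0.27 (adjusted p = 0.0646). The fall of En1 in C57BL/6J was called by DESeq2 (adjusted p = 0.0113), by the likelihood ratio test (0.0201), with no filter on low counts (0.0332) and with a replicate block (0.0446). In Cav1-null mice the log2 fold changes of Pax5, En1 and En2 were -0.06 ± 0.21, -0.12 ± 0.20 and -0.27 ± 0.16, with adjusted p of 0.261 to 0.872. In AKR/J the call of Pax5 was lost without any 1 library of d17 (adjusted p of 0.0669 to 0.129), and that of En2 without any 1 library except replicate 2 of d15 (0.0768 to 0.170). In C57BL/6J both were lost without replicate 1, 2 or 3 of d15 or replicate 3 of d17, with adjusted p from 0.0761 to 0.130. Without the libraries of low forebrain sum or high Hoxb8, the call of En2 in AKR/J was lost (adjusted p = 0.0833) and the other 3 were made. In 1 model of all 27 libraries all 4 were lost, with adjusted p of 0.368 and 0.318 for Pax5 and 0.584 and 0.399 for En2 in AKR/J and C57BL/6J.

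Pax2 and Pax8 had their highest levels in libraries with high Hox genes of the hindbrain and spinal cord. Pax2 (chromosome 19, 44735057 to 44826703, plus strand) was at 0.206, 0.132 and 1.42 CPM in AKR/J on d12, at 5.31, 7.30 and 23.7 CPM on d15 and at 6.19, 7.01 and 10.6 CPM on d17. In C57BL/6J it was at 0.0631, 4.54 and 3.11 CPM, at 5.08, 6.14 and 36.8 CPM, and at 8.88, 9.59 and 8.86 CPM. In Cav1-null mice it was at 0.620, 0.153 and 16.1 CPM, at 5.51, 6.04 and 3.02 CPM, and at 6.18, 3.97 and 3.15 CPM. The 4 highest libraries were replicate 3 of C57BL/6J d15, AKR/J d15, Cav1-null d12 and AKR/J d17, which were also those with the 4 highest Hox sums, although AKR/J d17, with the lower Pax2, had a higher Hox sum than Cav1-null d12. The highest libraries of the other d12 groups, replicate 3 of AKR/J and replicate 2 of C57BL/6J, had the lowest Hox sums of their groups, with 0.813 and 0.252 CPM. Pax8 (chromosome 2, 24309418 to 24365617, minus strand) ran from 0 to 7.99 CPM on d12, from 0.915 to 8.79 CPM on d15 and from 0.954 to 3.24 CPM on d17, and was the highest of its group in the same 4 libraries. Pax2 had the same highest library as Pax8 in 8 of the 9 groups, as the Hox sum in 7 and as the sum of 9 forebrain genes in 0. The ratio of Pax2 to Pax8 was 0.167 to 2.02 in the 8 libraries of d12 with Pax8 reads and 3.00 to 4.96 in the 9 libraries of d17. Between d12 and d15, Pax2 rose in AKR/J with a log2 fold change of 4.39 ± 0.95 (adjusted p = 0.0118), and without replicate 3 of d15, the library with the high Hox sum, it had 3.44 (adjusted p = 0.0511). Without both that library and replicate 3 of d12, it was called with 5.16 (adjusted p = 0.0238). In C57BL/6J its log2 fold change was 2.60 ± 1.16 (adjusted p = 0.153) and in Cav1-null mice -0.25 ± 1.18 (adjusted p = 0.902). Without replicate 3 of Cav1-null d12, the direction in Cav1-null mice turned. Pax2 was then called higher on d15 with a log2 fold change of 3.68, and Pax8, at -0.81 with all libraries, was called higher with 1.75. With all libraries, the quasi-likelihood test called no change of Pax8 and none of Pax2 between d15 and d17. Pax8 was called in AKR/J between d12 and d15 with no filter on low counts, with 2.47 (adjusted p = 0.0334), and between d15 and d17 with a replicate block, with -0.99 (adjusted p = 0.0449). Among the genes most like Pax2 were Lbx1 (r = 0.91), which marks dorsal interneurons of the hindbrain and spinal cord, and Slc6a5 (0.90), the glycine transporter of inhibitory neurons there. Inner ear and kidney genes (Oc90, Otog, Wt1 and Six2) summed to 0.434 to 48.1 CPM, and the highest sum was in replicate 1 of C57BL/6J d15, whose Pax2 was the lowest of that group. Of the 4 libraries highest in Pax2, replicate 3 of Cav1-null d12 had a sum of 30.2 CPM and the others had 1.53 to 2.71 CPM. Replicate 1 of Cav1-null d12, where Pax2 was at 0.620 CPM, had 28.9 CPM. The part of these tissues in the level of Pax2 was not tested.

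Lmx1b (chromosome 2, 33450977 to 33531093, minus strand) was at 10.8, 10.5 and 21.5 CPM in AKR/J on d12, at 6.85, 11.0 and 21.7 CPM on d15 and at 6.51, 4.38 and 7.01 CPM on d17. In C57BL/6J it was at 13.4, 28.6 and 32.7 CPM, at 13.9, 14.8 and 30.4 CPM, and at 9.14, 7.74 and 7.50 CPM. In Cav1-null mice it was at 6.34, 6.03 and 25.4 CPM, at 5.89, 7.58 and 3.42 CPM, and at 5.68, 5.96 and 4.23 CPM. It was highest in the same library as the Hox sum in 6 of the 9 groups. Lmx1b fell in C57BL/6J between d15 and d17 by 1.21 ± 0.31 on the log2 scale (adjusted p = 0.0443), and this call was made only without replicate 1 of d17 when single libraries were left out (adjusted p of 0.0705 to 0.165 in the others). Without the libraries of low forebrain sum or high Hoxb8 it was lost (adjusted p = 0.0921). The corresponding values were -1.12 ± 0.39 in AKR/J (adjusted p = 0.0714) and -0.09 ± 0.25 in Cav1-null mice (adjusted p = 0.833). The gene most like it over the 27 libraries was C130021I20Rik (r = 0.96), which lies on the opposite strand of chromosome 2 from 33531205 to 33556659 and starts 111 bases from the start of Lmx1b. The counting tool and its handling of strands are not given in the sources used here. Of the 10 genes, 9 overlap another annotated gene, En1 being the exception, and reads of overlapping genes cannot be told apart without strand.

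The genes most like the others differed from gene to gene. For Wnt1 they were Sox13 (r = 0.93), Fzd10 (0.93), a frizzled receptor of the dorsal midline, and Epha2 (0.92), and for Fgf8 they were Trmt112 (0.88), Sim2 (0.88) and Gadd45gip1 (0.87). For Otx2 they were Jam2 (0.97), Tal2 (0.97), a factor of GABA neurons in the midbrain, and Tfdp2 (0.97), and for Gbx2 they were Lbh (0.92), Rab1b (0.89) and Ctbp1 (0.89). Among the genes most like Pax8 were Gm12688 (0.89) and Gm33167 (0.88). Beside each other, Pax5, En1 and En2 were most like Lhx4 (0.84), Cyp26b1 (0.85) and Slc30a3 (0.88), respectively. Lmx1b was next most like Nkx6-1 (0.92) and Mab21l2 (0.90).

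Over the 10 genes and 6 day comparisons, more falls than rises were called. In AKR/J between d12 and d15, 2 genes were called lower (Otx2 and Fgf8), beside 14.0% of the 19935 genes tested, and 2 higher (Gbx2 and Pax2), beside 14.8%, with a median log2 fold change of 0.47 against 0.02 over all genes. Between d15 and d17 in AKR/J, 4 of 10 were called lower (Wnt1, Otx2, Pax5 and En2), beside 10.4% of all genes, and all 10 log2 fold changes were below 0, with a median of -0.99 against -0.01. In C57BL/6J, 2 of 10 were called lower between d12 and d15 (Fgf8 and Otx2), beside 7.8%, and 4 between d15 and d17 (Otx2, Pax5, En2 and Lmx1b), beside 5.58%. The medians were -0.45 and -0.88, against -0.04 and 0.03 over all genes. In Cav1-null mice, 2 of 10 were called lower between d12 and d15 (Otx2 and Gbx2), beside 11.8%, and 1 of 9 tested between d15 and d17 (Otx2), beside 12.8%. The medians were -0.89 and -0.12, against -0.01 and 0.00. The early and late intervals share the d15 libraries, so that a high or low d15 library moves both. Without the libraries of low forebrain sum or high Hoxb8, 1 gene was called higher in AKR/J (Pax2), beside 2.19% of all genes, and 1 lower in C57BL/6J (Gbx2), beside 1.31%, in the early interval. In the late interval 3 were then lower in AKR/J (Wnt1, Otx2 and Pax5), beside 7.93%, and 3 in C57BL/6J (Otx2, Pax5 and En2), beside 1.92%. In Cav1-null mice 6 were then called in the early interval, of which Pax2, Pax8, En1 (log2 fold change 0.79) and En2 (0.60) were higher on d15, beside 17.7%, and Otx2 and Gbx2 lower, beside 18.2%.

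**Figure D4:**
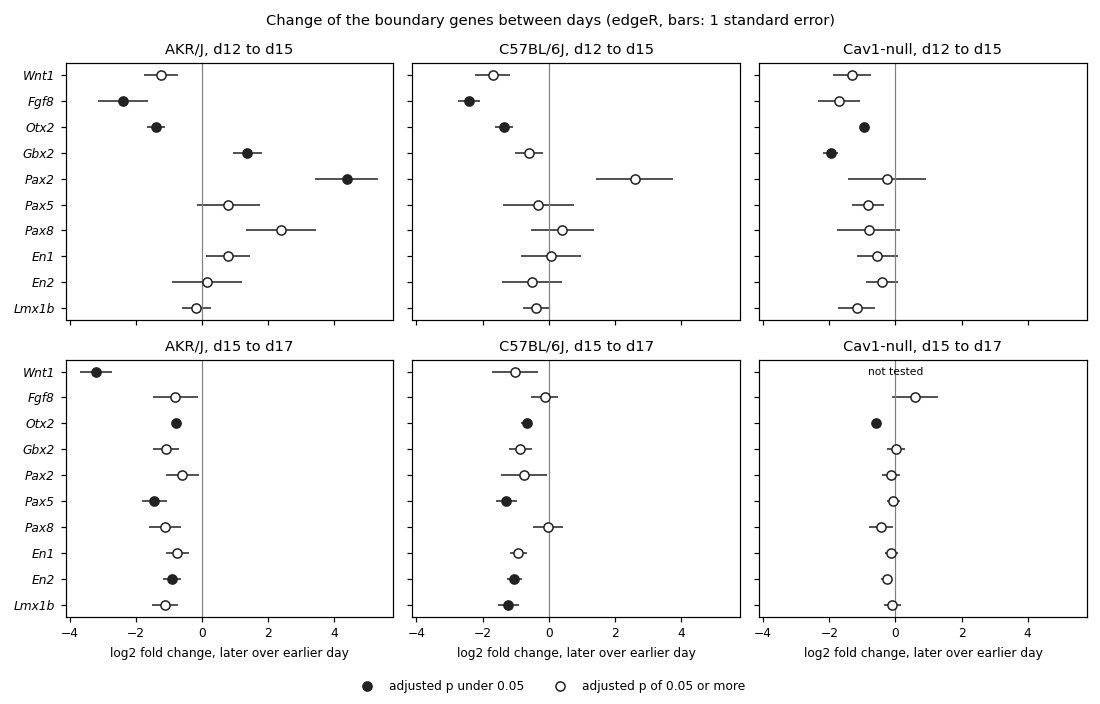
Log2 fold change of each gene (horizontal axis, later over earlier day) with its SE as bars, for each strain between d12 and d15 and between d15 and d17; filled points passed an adjusted p of 0.05. Otx2 is below 0 and filled in all 6 panels.

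On d15, 6 of the 10 genes were lower in Cav1-null mice than in C57BL/6J. They were Pax5, which was lower by a log2 fold change of -1.97 ± 0.11 (adjusted p = 2.27e-07), En2 with -1.54 ± 0.09 (adjusted p = 3.33e-07), En1 with -1.63 ± 0.17 (adjusted p = 1.62e-05), Gbx2 with -1.59 ± 0.22 (adjusted p = 1.11e-04), Lmx1b with -1.76 ± 0.34 (adjusted p = 0.00120) and Wnt1 with -1.68 ± 0.48 (adjusted p = 0.0121). The 3 libraries of each strain did not overlap for 7 genes, beside 65.3% of all genes tested, which were these and Otx2, whose log2 fold change was -0.15 ± 0.07 (adjusted p = 0.0658). Without replicate 3 of C57BL/6J, the library with the high Hox sum, Otx2 was called as well, with -0.20 (adjusted p = 0.0381), which made 7 genes called lower, beside 29.9% of all genes, and it was called with no filter on low counts (adjusted p = 0.0393). Pax2 had -1.67 ± 0.66 (adjusted p = 0.0503) and was called with RLE size factors (adjusted p = 0.0479), by the likelihood ratio test (0.0180) and with no filter on low counts (2.09e-04), but had -0.18 without replicate 3 of C57BL/6J (adjusted p = 0.624). Pax8 had -0.48 ± 0.45 (adjusted p = 0.382) and Fgf8 -0.34 ± 0.66 (adjusted p = 0.677). All 10 values were below 0 (Otx2 had 0.03 when scaled by library sizes alone, where the median over all genes was 0.21), with a median of -1.61 against 0.03 over all genes. On this day and in this comparison 58.6% of all 19827 genes tested were called, and 31.8% were called lower in Cav1-null mice. Except for Wnt1, which had an adjusted p of 0.0732 without replicate 2 of C57BL/6J, the calls were made without each single library. In 1 model of all 27 libraries, only Wnt1, Gbx2 and Lmx1b were called, and Pax5, En1 and En2 had adjusted p of 0.1005, 0.0965 and 0.171. Why these calls were lost was not tested. Markers of other regions and of blood differed as well. The sum of 9 forebrain genes was 581 to 591 CPM in Cav1-null mice and 1279.8 to 1522 CPM in C57BL/6J, with 8 of 9 called lower, and that of 6 cerebellum genes was 223 to 247 against 433 to 489 CPM, with 4 of the 5 tested called lower. The sum of 10 Hox genes was 13.9, 27.1 and 1.53 CPM in Cav1-null mice and 0.783, 0.206 and 160.0 CPM in C57BL/6J, and that of 6 erythroid genes was higher in Cav1-null mice, with 513 to 637 against 303 to 362 CPM.

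On the other days no gene passed the test between these strains. On d12, 0 of 10 were called with edgeR, beside 0.0% of 19475 genes, 0 with DESeq2, which left some of the genes without an adjusted p, and 2 had an unadjusted p under 0.05. They were Wnt1, with a log2 fold change of -2.04 ± 0.56 and an adjusted p of 0.114, and Fgf8, with -1.0 ± 0.34 and an adjusted p of 0.152. Wnt1 was called in 1 model of all libraries (adjusted p = 0.0352) and by the likelihood ratio test (adjusted p = 0.0226), and its adjusted p was 0.101 to 0.327 with single libraries left out. On d17, 0 of 9 tested were called by edgeR or DESeq2, beside 0.0491%, and 5 had an unadjusted p under 0.05 by either tool, namely Pax2, Lmx1b, Pax8, En1 and En2 with edgeR. Their log2 fold changes were -1.04, -0.62, -0.90, -0.81 and -0.75, all with an adjusted p of 0.575. Without replicate 2 of C57BL/6J d17, the library with the low forebrain sum, 4 genes were called lower in Cav1-null mice, beside 9.94% of all genes, which were Pax2 with -1.02, Pax5 with -1.03, En1 with -1.05 and En2 with -0.97. On d12, without the libraries of low forebrain sum in both strains, Wnt1 with -2.33 and Lmx1b with -1.70 were called lower, beside 11.2% of all genes.

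AKR/J was compared with the same C57BL/6J libraries, so that these values are not independent of those of Cav1-null mice. On d12, Gbx2 was the only gene called, lower in AKR/J by a log2 fold change of -2.17 ± 0.47 (adjusted p = 0.0149), beside 28.6% of 19320 genes, and it was lost without replicate 1 or 3 of AKR/J or replicate 1 or 2 of C57BL/6J (adjusted p of 0.0512 to 0.0720). On d15, Otx2 was the only gene called, higher in AKR/J with 0.42 ± 0.11 (adjusted p = 0.0215), beside 41.1% of 19692 genes. This call was lost without any 1 library except replicate 2 of AKR/J (adjusted p of 0.0607 to 0.0922), in 1 model of all 27 libraries (0.298) and with a replicate block (0.0545), and replicate 2 was the library with eye genes. Without replicate 3 of AKR/J d15, the library with the high Hox sum, 4 genes were called lower in AKR/J, beside 22.0% of all genes, which were Gbx2 with a log2 fold change of -0.90, Pax5 with -1.20, En1 with -1.13 and En2 with -0.73. On d17, 0 of 9 were called by edgeR or DESeq2, beside 0.742%, with 0 at an unadjusted p under 0.05 by edgeR and 1 by DESeq2. Without replicate 2 of C57BL/6J, 3 genes were called on d17, Otx2 higher in AKR/J with 0.48, beside 11.3% of all genes, and Gbx2 with -0.82 and Pax5 with -1.02 lower, beside 15.1%. The medians of the genes on the 3 days were -0.89, -0.31 and -0.23.

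**Figure D5:**
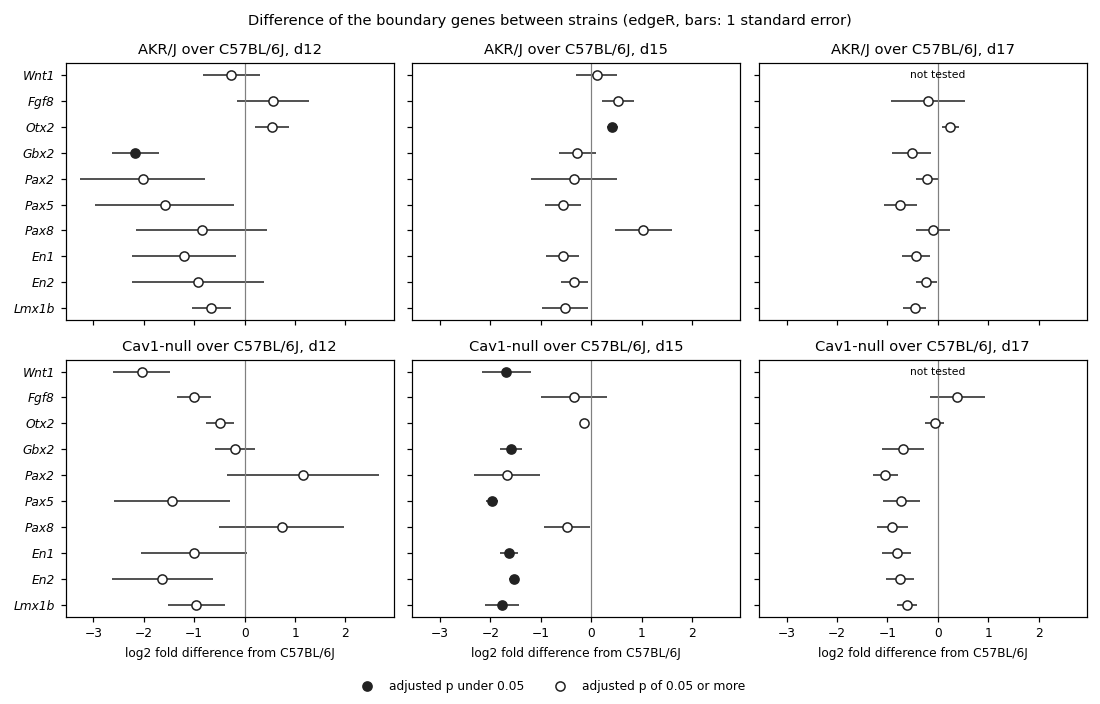
Log2 fold change of each gene (horizontal axis, AKR/J or Cav1-null over C57BL/6J) with its SE as bars on d12, d15 and d17; filled points passed an adjusted p of 0.05. On d15 all 10 genes lie below 0 in Cav1-null mice, of which Otx2 would be at 0.03 if scaled by library sizes alone, and 6 are filled.

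Whether the strains differed in their change between days was tested by interaction terms over 12 libraries. With edgeR, 0 of 10 genes passed in each of the 4 tests, as with DESeq2. For AKR/J against C57BL/6J the background was 0.0711% of all genes in the early and 0.00468% in the late interval, with 1 gene each at an unadjusted p under 0.05 (Gbx2 and Wnt1). For Cav1-null mice against C57BL/6J it was 0.00472% and 0.252%, with 1 (Gbx2) and 3 genes. The 3 genes of the late interval were Pax5 with 1.20 ± 0.42 (adjusted p = 0.142), Lmx1b with 1.10 ± 0.45 (adjusted p = 0.185) and En2 with 0.74 ± 0.31 (adjusted p = 0.189), where a value above 0 stands for a smaller fall in Cav1-null mice. In this interval of Cav1-null mice, Pax5 was called with no filter on low counts (adjusted p = 0.0334), and Pax5 with 1.55 (adjusted p = 0.0118), En1 with 1.16 (0.0133) and En2 with 0.99 (0.0251) were called without replicate 1 of C57BL/6J d17. The background of 0.252% belongs to the fit with the filter and all 12 libraries. The share of all genes called in these other fits is not given here, so that their calls cannot be set against it. With the filter and all 12 libraries of each term, the quasi-likelihood test called no difference between strains in the change of these genes. This includes Otx2, whose 4 terms lay between -0.11 and 0.35. A term that was not called does not show that the changes were equal. In 1 model of all 27 libraries, Gbx2 was called in the early term of AKR/J.

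Other genes of the pathways were described from 4 lists, and their counts are to be read beside the share of all genes called. In the early and the late interval, 14.0% and 10.4% of all genes were called lower and 14.8% and 11.6% higher in AKR/J. In C57BL/6J, 7.8% and 5.58% were lower and 7.08% and 7.46% higher, and in Cav1-null mice 11.8% and 12.8% were lower and 11.6% and 14.5% higher. Between Cav1-null mice and C57BL/6J on d15, 31.8% were lower and 26.8% higher. Between AKR/J and C57BL/6J, 14.1% were lower and 14.5% higher on d12, and 22.3% lower and 18.8% higher on d15.

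Of 14 genes of the FGF pathway, 1 was called lower in AKR/J between d12 and d15 and 5 lower (beside 10.4% of all genes) and 1 higher between d15 and d17, where Fgf15, a ligand of the isthmus, changed most with a log2 fold change of -1.51 ± 0.26 (adjusted p = 0.00596). In C57BL/6J, 3 were lower and 2 higher in the early interval and 4 lower and 1 higher in the late one, and Fgf17, another isthmic ligand, changed most in both, with -1.43 ± 0.36 and -1.62 ± 0.25. In Cav1-null mice, 5 were lower and 1 higher, then 4 lower and 3 higher, led by Fgfr3 with -1.32 ± 0.20 and Fgf15 with -1.25 ± 0.25. Etv5, a transcriptional target of FGF signaling, was the gene that differed most between Cav1-null mice and C57BL/6J on d15 with -1.54 ± 0.10 (adjusted p = 3.47e-07), when 10 were lower, beside 31.8% of all genes, and 1 higher. It also differed most between AKR/J and C57BL/6J, with -1.13 ± 0.32 on d12, when 1 was lower, and -1.35 ± 0.15 on d15, when 4 were lower and 1 higher.

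Of 15 genes of the WNT pathway, 1 was called lower in AKR/J in the early interval (Lef1, a transcription factor of the pathway, with -0.94 ± 0.26), and 10 were lower and 1 higher in the late one. In C57BL/6J, 2 were lower and then 5 lower and 1 higher, and in Cav1-null mice 9 were lower and then 4 lower and 1 higher. Tcf7l1, a repressor of WNT targets, changed most in the late interval of AKR/J with -1.99 ± 0.31 and of C57BL/6J with -2.10 ± 0.37, and in the early interval of Cav1-null mice with -1.74 ± 0.24. It was also the gene that differed most on d15 between Cav1-null mice and C57BL/6J, with -2.97 ± 0.17 (adjusted p = 2.34e-07), when 13 of 15 were lower, beside 31.8% of all genes. Between AKR/J and C57BL/6J, 4 were lower on d12, led by the inhibitor Apcdd1 with -1.22 ± 0.30, and 9 on d15, led by the coreceptor Lrp5 with -1.32 ± 0.21.

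Of 9 other factors of the midbrain and first rhombomere, 2 were lower and 1 higher in AKR/J in the early interval, led by Lmx1a with -2.05 ± 0.37, and 6 lower in the late one, led by the floor plate factor Foxa2 with -1.99 ± 0.48. In C57BL/6J, 1 was lower (Otx1 with -1.10 ± 0.12) and then 6, led by Irx3 with -1.51 ± 0.22, and in Cav1-null mice 6 and then 5 were lower, led by Foxa2 with -1.90 ± 0.39 and Otx1 with -0.86 ± 0.14. All 9 were lower in Cav1-null mice than in C57BL/6J on d15, beside 31.8% of all genes, with Irx3 at -1.94 ± 0.17. In AKR/J against C57BL/6J, 1 was lower on d12, Meis2 with -0.86 ± 0.24, and 2 on d15, led by Sp8 with -0.81 ± 0.11. Genes of the neurons born near the boundary were called in both directions. Of 9 genes of dopamine and serotonin neurons, 5 were higher in AKR/J in the early interval, of which the dopamine transporter Slc6a3 had the largest fitted change (adjusted p = 0.00423), with 0, 0.0658 and 0 CPM on d12, too few reads for a fold change, and 1.23, 1.28 and 1.21 CPM on d15, and 2 were lower in the late one, led by Gata3, a factor of serotonin neurons, with -1.10 ± 0.29. In C57BL/6J, 1 was higher, Aldh1a1 with 2.86 ± 0.34, an enzyme of a subset of dopamine neurons, and then 2 were higher and 1 lower, led by Aldh1a1 with 1.80 ± 0.23. In Cav1-null mice, 1 was higher (Aldh1a1 with 3.46 ± 0.41) and 3 lower, and then 4 were higher, led by Slc6a3 with 1.24 ± 0.23. On d15, 4 of these genes were lower and 1 higher in Cav1-null mice than in C57BL/6J, beside 31.8% and 26.8% of all genes, led by Gata3 with -1.10 ± 0.11. In AKR/J against C57BL/6J, 1 of 7 tested was lower on d12 (Nr4a2 with -0.75 ± 0.24) and 2 of 9 on d15, led by Slc6a3 with -0.84 ± 0.21. No gene of the 4 lists was called on d17 in either strain, on d12 in Cav1-null mice, or in an interaction term.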

How the data were processed

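Whole fetal brain RNA was collected from 27 female fetuses of 3 strains on 3 days. The authors snap-froze the tissue, sequenced poly-A RNA in paired reads, checked reads with FastQC, trimmed them with cutadapt and fastp and mapped them to GRCm39 with STAR; the counting tool and strand setting are not given in the sources used here. The deposited values are raw read counts per gene and reads per splice junction, from which the authors left out multi-mapped, short-overhang and rare junctions. Totals were 26363697 to 39759702 reads per library, and TMM factors 0.6785 to 1.1185.

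The 6 libraries of each pair of groups were fitted with edgeR 4.0.16 under R 4.3.3 (filterByExpr, TMM, glmQLFit and glmQLFTest), with Benjamini-Hochberg adjustment over all genes tested. SE was taken as the size of the log2 fold change divided by the root of F. Junction pairs with at least 100 reads in all were compared over libraries with at least 10 by an exact two-sided permutation test (scipy 1.17.1). Exon lengths and overlaps came from GENCODE vM39. Fits were tested on simulated data. Of each list, the called gene with the largest change was named, and for each of the 10 genes the 3 genes most like it on log2(CPM + 1). The members and lists were chosen with earlier results of these data known. Alternatives were RLE factors, library sizes alone, no filter, DESeq2 1.42.0, the likelihood ratio test, 1 model of all libraries, a replicate block, other junction settings and each library left out. Some genes are not reported here. Leaving out the libraries whose forebrain sum was below 0.5 of the highest of the group or whose Hoxb8 was over 10 CPM, or those with the longer Otx2 intron listed at 0, was chosen after the values were seen.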

Additional observations from a re-analysis of the deposited data

How the results depend on the processing

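Counts of called genes among the 10 often moved with single libraries, and the share of all genes called moved in some of these fits. Without replicate 2 of C57BL/6J d17, 9.94% of all genes were called lower in Cav1-null mice on d17. With all libraries, 0.0491% were called in either direction. Without replicate 3 of AKR/J d15, 22.0% were lower in AKR/J than in C57BL/6J on d15, against 22.3% with it. For most of these fits the share is not given here, so the counts are not set against it. Counts with each library left out ranged from 1 to 4 in AKR/J between d12 and d15, 2 to 5 in AKR/J between d15 and d17, 0 to 3 and 0 to 6 in C57BL/6J, 2 to 6 and 1 to 1 in Cav1-null mice, 0 to 1, 0 to 4 and 0 to 3 for AKR/J against C57BL/6J on d12, d15 and d17, and 0 to 0, 6 to 7 and 0 to 4 for Cav1-null mice against C57BL/6J. For the interaction terms they were 0 to 1 and 0 to 0 for AKR/J and 0 to 0 and 0 to 3 for Cav1-null mice.

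With library sizes alone, 2 genes were called in AKR/J between d12 and d15. With no filter on low counts, 4 were called in Cav1-null mice between d12 and d15, 1 between Cav1-null mice and C57BL/6J on d12 and 1 in the late interaction of Cav1-null mice. The likelihood ratio test called 1 on d12 between Cav1-null mice and C57BL/6J. In 1 model of all 27 libraries, the late interval had 2 calls in AKR/J, 1 in C57BL/6J and 0 for Cav1-null, 0 between AKR/J and C57BL/6J on d15, 1 and 3 between Cav1-null mice and C57BL/6J on d12 and d15, and 1 in the early interaction of AKR/J.

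The replicate numbers were not treated as pairs. The correlations of same-numbered libraries ranged from -0.503 to 0.432, and no comparison had all of them over 0.1. For AKR/J against C57BL/6J on d12 they were 0.094, 0.325 and 0.275, and each AKR/J library there correlated most with the C57BL/6J library of its own number. Shared handling of same-numbered libraries is therefore not excluded. With a replicate block, 2 genes were called in AKR/J and 0 in C57BL/6J between d12 and d15, and 2 between AKR/J and C57BL/6J on d12 (Gbx2 and En2) and 2 on d15 (Pax8 and Lmx1b). Other calls gained with all libraries were, in AKR/J between d15 and d17, Lmx1b and Gbx2 by DESeq2 and with no filter, Lmx1b by the likelihood ratio test and Gbx2 with the block, and, in Cav1-null mice between d12 and d15, Fgf8 by the likelihood ratio test and Fgf8 and Lmx1b with no filter.

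Without the libraries of low forebrain sum or high Hoxb8, chosen after the values were seen, between d12 and d15 AKR/J and C57BL/6J had 1 called gene each and Cav1-null mice 6, with 4 and 3 between AKR/J and C57BL/6J on d15 and d17, and 2, 7 and 4 between Cav1-null mice and C57BL/6J on d12, d15 and d17. In the late interval AKR/J and C57BL/6J had 3 each. Between d12 and d15 in Cav1-null mice, this and leaving out replicate 3 of d12 alone, which are the same libraries, turned the log2 fold changes of Pax2 (3.68), Pax8 (1.75), En1 (0.79) and En2 (0.60). Over all single libraries left out, they ranged from -0.82 to 3.68 for Pax2, -1.32 to 1.75 for Pax8, -0.95 to 0.79 for En1 and -0.76 to 0.60 for En2. Of 2417 log2 fold changes under an alternative, 2260 kept their side of the threshold, 79 lost a call, 70 gained one and 8 were counted as turned. These 8 do not cover every change of sign. With library sizes alone, the uncalled Otx2 between Cav1-null mice and C57BL/6J on d15 also turned. Of 90 levels without TMM scaling, 83 moved by less than 1 SD. No junction pair was called in any junction setting. Except where given, the causes were not tested. Groups of 3 libraries and, for Wnt1, Fgf8, Pax2 and Pax8, counts down to 0 to 5 reads in single libraries limit the precision.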
